A study of Mus musculus with 11 samples.

Results

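The genes described here encode the enzymes that build chondroitin sulfate and dermatan sulfate, and their transcript levels were compared between 3 populations of mouse CD4+ T cells. Members were taken by name, 10 in all, and a member was measured where the array table held a probe set for one of its RefSeq transcripts. This matched 9 of the 10, among 909 genes that could be named on the array, and *Dse*, the epimerase that turns chondroitin into dermatan, is not analysed here. All cells came from spleens of female C57BL/6 mice and were separated by flow sorting. They were CD4+CD25+ CD45RBlow cells, labelled as a regulatory population (Treg, n = 3, replicates 1, 2 and 4), CD4+CD25- CD45RBlow cells, labelled activated/memory (n = 4), and CD4+CD25- CD45RBhigh cells, labelled naive (n = 4). The donors of both CD25- populations were naive mice between 4 and 6 weeks of age, and the labels give no age for the Treg donors. No label says whether an array holds RNA of 1 animal or of pooled animals, so a p-value measures only the spread between these samples.

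Chondroitin sulfate is a long, unbranched chain of alternating glucuronic acid and N-acetylgalactosamine, attached to serines of a core protein through a short linkage region that heparan sulfate shares. The chain is begun by a first N-acetylgalactosamine, extended by a polymerase complex in the Golgi, and then sulfated at defined positions. Epimerisation of glucuronic to iduronic acid turns stretches of it into dermatan sulfate. The pattern of sulfate groups sets which chemokines, growth factors and adhesion proteins the chain can bind, and in lymphocytes such chains are carried by serglycin in granules and by part of the CD44 and invariant chain molecules.

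Every value below is a log2 expression value of 1 array, after Robust Multichip Average (RMA) normalization, and a difference of 1 is a 2-fold difference. Levels are compared between populations for the same gene and never between genes, since probe sets differ in brightness. The medians of the 11 arrays lay between 4.85 and 4.94. *Il2ra*, the gene of the sorted marker CD25, averaged 9.84 in Treg cells, 6.17 in CD45RBlow cells and 4.07 in CD45RBhigh cells. *Ccr7*, a homing receptor gene of naive T cells, differed by -1.01 between Treg and CD45RBhigh cells. The 5 measured of 10 listed regulatory T cell markers summed to 47.76 to 50.28 in Treg, 32.68 to 37.22 in CD45RBlow and 24.17 to 25.63 in CD45RBhigh cells, and *Foxp3* and *Cd4* are not analysed here. Arrays of 1 replicate number were taken to pair across populations, though no label says so. The number was therefore also fitted as a block, and its values are given where they change a call.

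*Ust* showed the widest difference between populations, lowest in Treg and highest in CD45RBhigh cells, while *Chsy1* peaked in CD45RBlow cells and *Chst11* was lowest in CD45RBhigh cells. *Chst3* and *Chst15* each passed in 1 comparison with smaller differences, and *Csgalnact1*, *Csgalnact2*, *Chpf* and *Chst12* passed in none. In Treg against CD45RBhigh cells 3 of the 9 measured members passed an adjusted p of 0.05 in limma, where 18.9% of all probe sets passed. Of these, 2 were higher (10.3% of all probe sets) and 1 was lower (8.59%) in Treg cells. In Treg against CD45RBlow cells 2 of 9 passed, both lower in Treg cells, against 12.5% over the whole array, made up of 6.74% higher in Treg cells and 5.78% lower. In CD45RBlow against CD45RBhigh cells 4 of 9 passed, 2 higher and 2 lower, against 12.6% of all probe sets (7.62% higher and 4.98% lower). With the replicate block 3, 3 and 4 of the 9 passed in these comparisons in the same order, where 26.5%, 19.7% and 21.7% of all probe sets passed. The median difference of the 9 members was -0.12, -0.04 and -0.02 in these comparisons in the same order, beside -0.04, 0.04 and -0.08 for all probe sets. The comparisons share arrays, so their counts are not independent of each other.

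**Figure D1:**
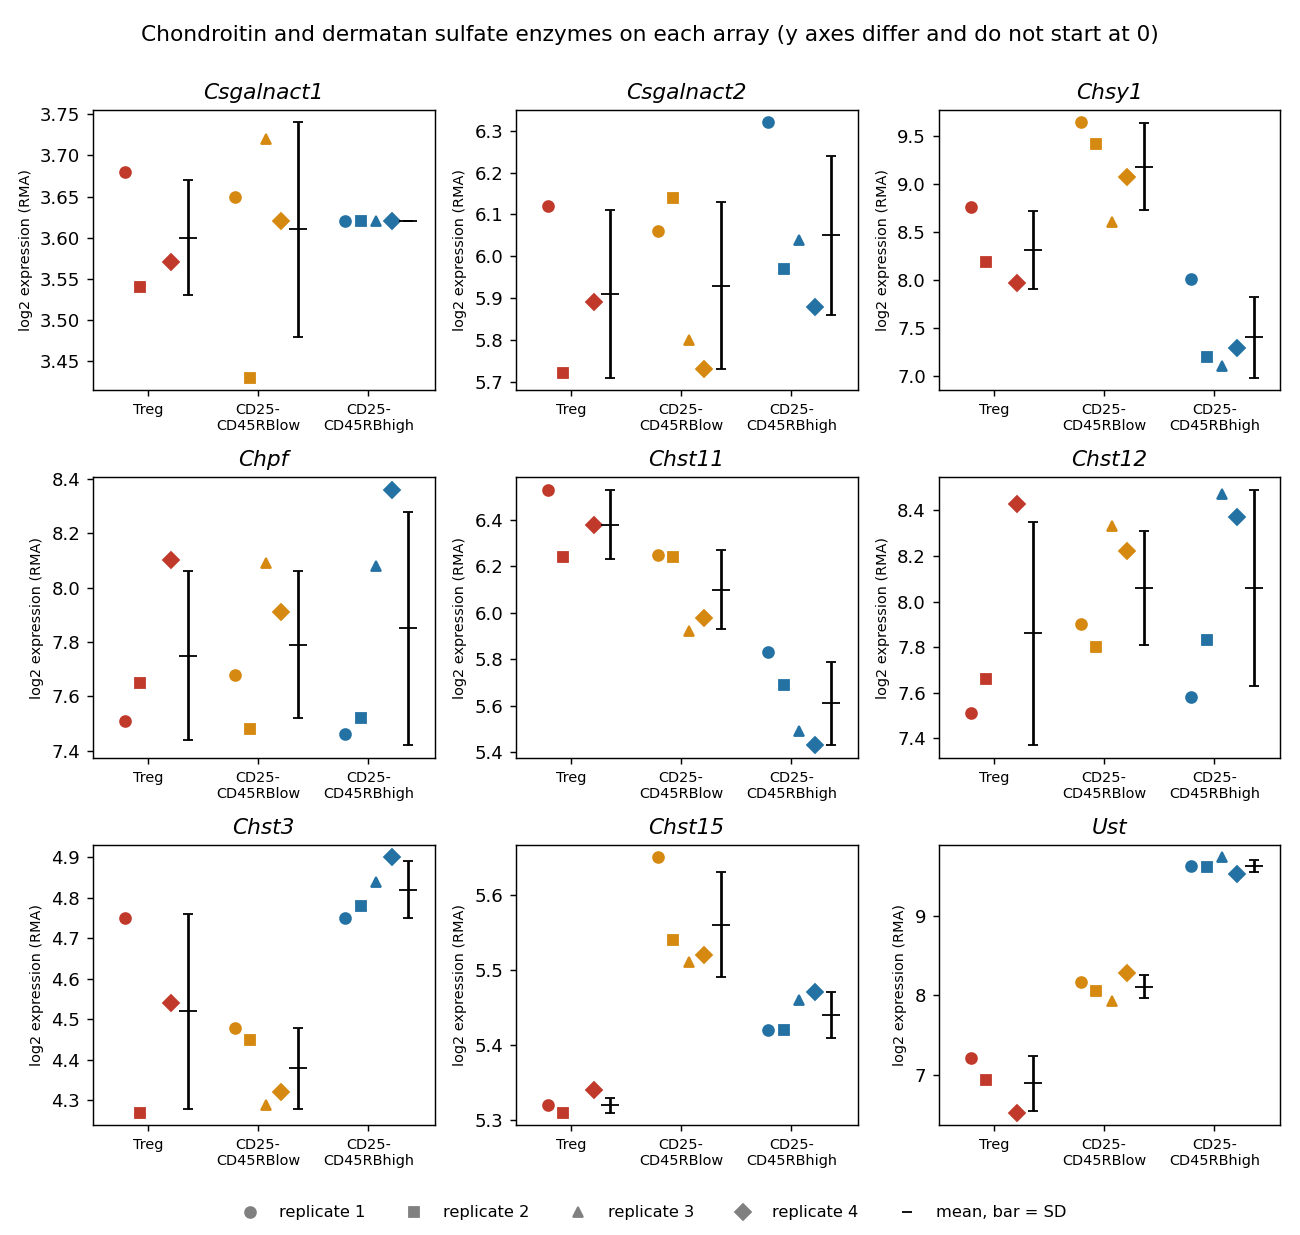
Log2 expression (RMA) of the 9 measured enzymes, 1 panel per gene, with 1 point per array, its shape giving the replicate number, and a bar for the mean and SD of each population. *Ust* separates the populations without overlap (6.52 to 7.21 in Treg, 7.93 to 8.28 in CD45RBlow and 9.53 to 9.74 in CD45RBhigh cells), and *Chsy1* is highest in CD45RBlow cells (8.60 to 9.64).

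The promoters of *Chsy1*, *Chst11* and *Ust* are shown because these are the members that passed in more than 1 comparison. In Treg and in CD45RBlow cells *Chsy1* and *Chst11* were higher than in CD45RBhigh cells, while *Ust* was lower. Each window runs from 250 bases before to 50 after the transcription start and is from RefSeq on GRCm38.p6, at chr7:66109242-66109541 (plus strand) for *Chsy1*, chr10:82985247-82985546 (plus strand) for *Chst11* and chr10:8518776-8519075 (minus strand) for *Ust*. Capitals mark matches, on either strand, to 6 motifs that were searched: the GC box GGGCGG, the E-box CACGTG, the CCAAT box CCAAT, the TATA box TATAAA, the RUNX core TGTGGT and the forkhead core TGTTTAC.
Chsy1: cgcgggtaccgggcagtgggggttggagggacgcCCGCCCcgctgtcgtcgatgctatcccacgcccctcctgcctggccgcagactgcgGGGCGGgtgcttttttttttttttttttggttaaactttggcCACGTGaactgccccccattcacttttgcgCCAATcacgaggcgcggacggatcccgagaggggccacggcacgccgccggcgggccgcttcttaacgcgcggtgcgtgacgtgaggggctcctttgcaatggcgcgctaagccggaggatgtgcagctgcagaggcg
Chst11: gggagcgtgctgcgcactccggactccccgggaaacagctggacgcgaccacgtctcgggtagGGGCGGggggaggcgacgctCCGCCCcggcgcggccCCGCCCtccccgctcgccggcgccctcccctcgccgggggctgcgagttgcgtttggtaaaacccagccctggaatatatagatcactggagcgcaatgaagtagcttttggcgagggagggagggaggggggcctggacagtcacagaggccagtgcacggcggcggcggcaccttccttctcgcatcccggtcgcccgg
Ust: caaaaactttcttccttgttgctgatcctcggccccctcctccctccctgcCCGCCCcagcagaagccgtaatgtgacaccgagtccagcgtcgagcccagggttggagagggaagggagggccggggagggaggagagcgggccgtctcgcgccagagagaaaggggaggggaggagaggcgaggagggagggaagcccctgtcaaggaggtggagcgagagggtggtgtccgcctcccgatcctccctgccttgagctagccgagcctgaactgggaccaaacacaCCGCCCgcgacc
The GC box was found 2 times for *Chsy1*, 3 times for *Chst11* and 2 times for *Ust*, and 35.7% of the 32851 promoter windows in the table hold it. An E-box (held by 7.15% of windows) and a CCAAT box (37.4%) were found 1 time each for *Chsy1* and not for the other two. The TATA, RUNX and forkhead letters (13.6%, 16.8% and 3.65% of windows) matched in 0 of these 3 windows. Different motifs overlapped 0 times. The windows were 65.3%, 71.0% and 66.3% G and C for *Chsy1*, *Chst11* and *Ust*, beside a median of 52.7% over the table. These matches describe letters in 1 window per gene and are not measured binding.

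The enzymes that add the first N-acetylgalactosamine of the chain, *Csgalnact1* and *Csgalnact2*, passed in 0 of the 3 comparisons. *Csgalnact1* read 3.68, 3.54 and 3.57 in Treg cells, 3.65, 3.43, 3.72 and 3.62 in CD45RBlow cells, and 3.62 to 2 decimals on each of the 4 CD45RBhigh arrays. Of these, 3 hold exactly the same value as CD45RBlow replicate 4. All 3 population means lay under 3.64, the first quartile of all values on these arrays, which is read here as near background. *Csgalnact2* read 6.12, 5.72 and 5.89 in Treg cells, 6.06, 6.14, 5.80 and 5.73 in CD45RBlow cells, and 6.32, 5.97, 6.04 and 5.88 in CD45RBhigh cells. Its 3 populations overlapped, and the 95% interval of the difference was -0.44 to 0.15 for Treg minus CD45RBhigh cells, -0.32 to 0.27 for Treg minus CD45RBlow cells and -0.39 to 0.16 for CD45RBlow minus CD45RBhigh cells. Differences beyond those bounds are outside the intervals, and smaller ones could not be told from 0 with these arrays.

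Of the 2 measured members of chain extension, *Chsy1* differed between populations and *Chpf* did not pass in any comparison. The synthase gene *Chsy3*, outside the member list, was also measured and did not pass in any. *Chsy1*, a chondroitin synthase with both polymerising activities, read 8.76, 8.19 and 7.97 in Treg cells, 9.64, 9.41, 8.60 and 9.07 in CD45RBlow cells, and 8.01, 7.20, 7.10 and 7.29 in CD45RBhigh cells. The CD45RBlow arrays all lay above the CD45RBhigh arrays, and the Treg arrays lay between them with some overlap on both sides. CD45RBlow cells were 3.43-fold above CD45RBhigh cells (log2 difference 1.78, SE 0.26, limma adjusted p = 0.000699). Treg cells were 1.87-fold above CD45RBhigh cells (0.90, SE 0.28, limma adjusted p = 0.0477), a call near the threshold. The limma adjusted p was 0.194 when Treg replicate 1 was left out (difference 0.68), 0.102 when Treg replicate 2 was, and 0.109, 0.112 and 0.0939 when CD45RBhigh replicate 2, 3 or 4 was. It was 0.0812 for replicates 1 and 2 alone, 0.146 for replicates 3 and 4 alone, 0.0521 with arrays centred on their medians and 0.111 with no moderation of the variance.

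Set against CD45RBlow cells, *Chsy1* in Treg cells differed by -0.87 (SE 0.28) with an adjusted p of 0.0756 in limma, which did not pass. It passed when CD45RBlow replicate 3 was left out (-1.07, limma adjusted p = 0.0277). With the replicate number as a block the same comparison gave -1.02 (SE 0.11, limma adjusted p = 7.82e-05), and the Treg over CD45RBhigh difference gave 0.76 (SE 0.11, limma adjusted p = 0.000464). Between arrays of the same number, Treg was lower than CD45RBlow in 3 of 3 pairs, by -1.22 to -0.88, and higher than CD45RBhigh in 3 of 3 pairs, by 0.68 to 0.99. *Chpf*, the polymerising factor that a chondroitin synthase needs as its partner, read 7.51, 7.65 and 8.10 in Treg cells, 7.68, 7.48, 8.09 and 7.91 in CD45RBlow cells, and 7.46, 7.52, 8.08 and 8.36 in CD45RBhigh cells. These ranges overlapped almost wholly. The difference was -0.10 (95% interval -0.61 to 0.41) for Treg minus CD45RBhigh cells, -0.04 (-0.55 to 0.47) for Treg minus CD45RBlow cells and -0.07 (-0.54 to 0.41) for CD45RBlow minus CD45RBhigh cells.

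Of the member sulfotransferases that place sulfate on carbon 4 of N-acetylgalactosamine, *Chst11* differed between populations and *Chst12* did not pass. Further measured sulfotransferases outside the member list are given below. *Chst11* read 6.53, 6.24 and 6.38 in Treg cells, 6.25, 6.24, 5.92 and 5.98 in CD45RBlow cells, and 5.83, 5.69, 5.49 and 5.43 in CD45RBhigh cells. All Treg and all CD45RBlow arrays lay above the highest CD45RBhigh array, whereas Treg and CD45RBlow arrays met at 6.24. CD45RBlow cells were 1.40-fold above CD45RBhigh cells (log2 difference 0.49, SE 0.11, limma adjusted p = 0.0139), and the Treg difference from CD45RBhigh cells was 0.77 (SE 0.12, limma adjusted p = 0.000718). Treg minus CD45RBlow was 0.28 (95% interval 0.02 to 0.55, limma adjusted p = 0.186), so the order of these neighbours was not established. *Chst12*, the second enzyme of this activity, read 7.51, 7.66 and 8.43 in Treg cells, 7.90, 7.80, 8.33 and 8.22 in CD45RBlow cells, and 7.58, 7.83, 8.47 and 8.37 in CD45RBhigh cells. Each population spanned nearly the same range, and the interval of the difference was -0.77 to 0.38 for Treg minus CD45RBhigh cells and -0.53 to 0.53 for CD45RBlow minus CD45RBhigh cells.

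The members of sulfation at carbon 6 each passed in 1 comparison, and not in the same one. *Chst7*, a measured sulfotransferase gene of carbon 6 outside the member list, did not pass in any. *Chst3*, which adds this sulfate to N-acetylgalactosamine, read 4.75, 4.27 and 4.54 in Treg cells, 4.48, 4.45, 4.29 and 4.32 in CD45RBlow cells, and 4.75, 4.78, 4.84 and 4.90 in CD45RBhigh cells. The CD45RBlow arrays all lay below the CD45RBhigh arrays, a difference of -0.43 (SE 0.10, limma adjusted p = 0.0122), and the Treg arrays spread over both ranges. Within replicates 1 and 2 alone this call ended (-0.30, adjusted p = 0.214). Treg minus CD45RBhigh was -0.29 (SE 0.10, limma adjusted p = 0.0775). That difference passed without Treg replicate 1 (-0.41, adjusted p = 0.0142), which read the same as the lowest CD45RBhigh array to 2 decimals. Centring arrays on their 75th percentile had the same effect (-0.36, adjusted p = 0.0260).

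*Chst15*, which adds a second sulfate, at carbon 6, to units already sulfated at carbon 4, read 5.32, 5.31 and 5.34 in Treg cells, 5.65, 5.54, 5.51 and 5.52 in CD45RBlow cells, and 5.42, 5.42, 5.46 and 5.47 in CD45RBhigh cells. The 3 populations did not overlap, yet the whole range was 5.31 to 5.65. Treg cells were 1.18-fold below CD45RBlow cells (log2 difference -0.23, SE 0.05, limma adjusted p = 0.0138). It no longer passed when Treg replicate 1 was left out (-0.23, limma adjusted p = 0.0507), in replicates 3 and 4 alone (-0.18, 0.383) or with arrays centred on their 75th percentile (-0.26, 0.0821). Treg minus CD45RBhigh (-0.12, SE 0.05) and CD45RBlow minus CD45RBhigh (0.11, SE 0.05) did not pass, at limma adjusted p = 0.156 and 0.166. Counting such separations, 3 of 9 members did not overlap between Treg and CD45RBhigh cells, where 25% of all probe sets did not. Between Treg and CD45RBlow cells it was 2 of 9 against 21.3%, and between CD45RBlow and CD45RBhigh cells 5 of 9 against 17.8%.

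*Ust* encodes the sulfotransferase that acts on carbon 2 of the uronic acid, the sugar that the other sulfotransferases here leave alone. It read 7.21, 6.93 and 6.52 in Treg cells, 8.17, 8.05, 7.93 and 8.28 in CD45RBlow cells, and 9.63, 9.62, 9.74 and 9.53 in CD45RBhigh cells. Every Treg array lay below every CD45RBlow array, and every CD45RBlow array below every CD45RBhigh array. Treg cells were 6.70-fold below CD45RBhigh cells (log2 difference -2.74, SE 0.14, limma adjusted p = 1.27e-07) and 2.33-fold below CD45RBlow cells (-1.22, SE 0.14, limma adjusted p = 0.000115). CD45RBlow cells were 2.88-fold below CD45RBhigh cells (-1.52, SE 0.13, limma adjusted p = 1.27e-05). Between arrays of the same number the Treg minus CD45RBhigh difference was -3.01 to -2.42 in 3 of 3 pairs, and CD45RBlow minus CD45RBhigh was -1.81 to -1.25 in 4 of 4 pairs.

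The probe set behind these *Ust* values has a suffix (s) that marks probes which may also match other transcripts, and so does a second, dimmer one (suffix x). The second read 5.79, 5.58 and 5.72 in Treg cells, 6.64, 6.57, 6.23 and 6.57 in CD45RBlow cells, and 7.95, 7.91, 7.95 and 7.54 in CD45RBhigh cells. It gave the same order without overlap. Its differences were -2.14 (SE 0.12) for Treg minus CD45RBhigh, -0.81 (SE 0.12) for Treg minus CD45RBlow and -1.33 (SE 0.11) for CD45RBlow minus CD45RBhigh cells, at limma adjusted p = 2.73e-07, 0.000899 and 1.27e-05. In sorted bulk samples, fewer cells that express *Ust* and less *Ust* RNA per cell cannot be told apart.

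Natural killer and CD8 T cell markers read lower in Treg arrays, as *Ust* did. Of 8 such markers listed 4 were measured, and the sum of their log2 values was 12.69 to 13.51 in Treg, 17.84 to 19.07 in CD45RBlow and 18.77 to 20.16 in CD45RBhigh cells. In limma 3 of the 4 were lower in Treg than in CD45RBhigh cells (8.59% of all probe sets) and 1 than in CD45RBlow cells (5.78%). The sum over the 2 measured B cell markers was 14.48 to 14.80 in Treg, 13.64 to 14.38 in CD45RBlow and 13.56 to 13.91 in CD45RBhigh cells. Both were higher in Treg than in CD45RBhigh cells (10.3% of all probe sets). Against CD45RBlow cells 1 was higher (6.74%) and 1 was lower (5.78%) in Treg cells. Activated and memory T cell markers (7 of 7 measured) summed to 49.49 to 50 in Treg, 61.3 to 68.24 in CD45RBlow and 43.78 to 47.92 in CD45RBhigh cells, the order that *Chsy1* also followed. Of the 7, 2 were higher in Treg than in CD45RBhigh cells (10.3% of all probe sets) and 6 were lower than in CD45RBlow cells (5.78%). All 7 were higher in CD45RBlow than in CD45RBhigh cells (7.62%). The part of these markers in the results on the enzymes was not tested. The 4 measured myeloid and dendritic cell markers summed to 15.16 to 15.62, 15.03 to 15.76 and 15.27 to 15.61 in the same order, and 0 of them passed in limma in any comparison.

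**Figure D2:**
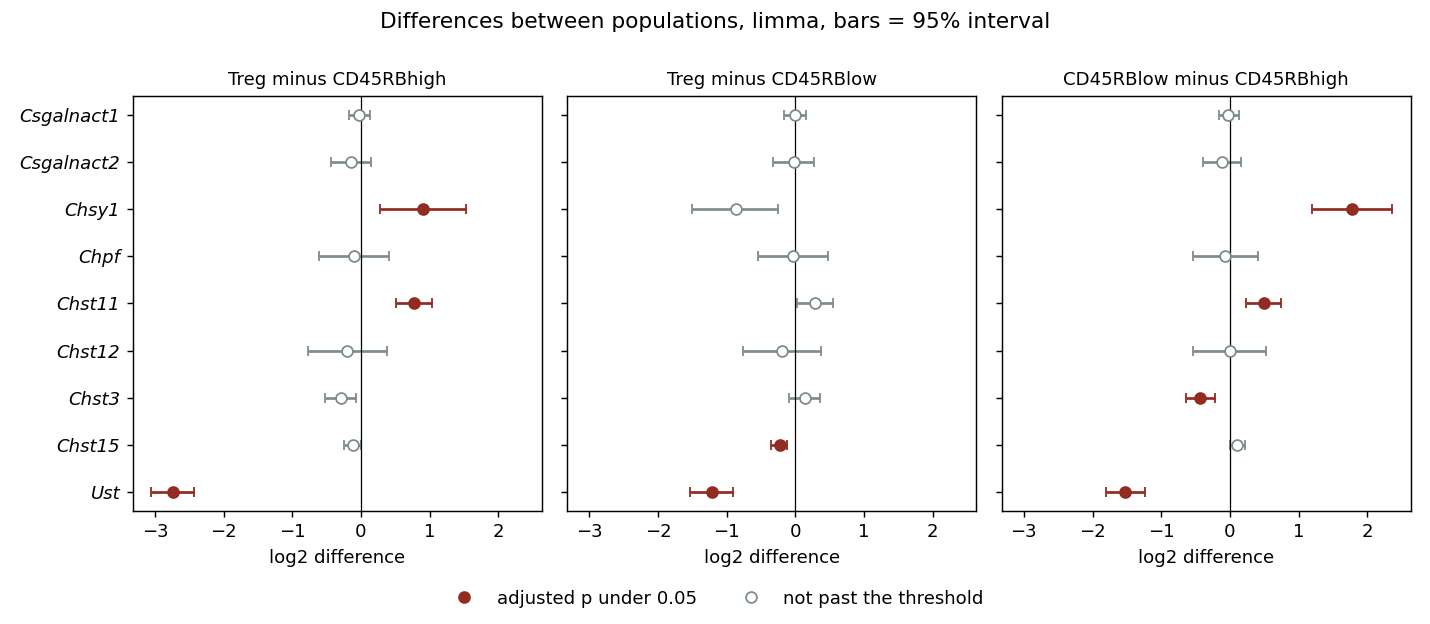
Log2 difference between populations for each of the 9 enzymes, 1 panel per comparison, with limma's 95% interval and filled points where the adjusted p was under 0.05. *Ust* lies left of 0 in all 3 panels (-2.74, -1.22 and -1.52), *Chsy1* reaches 1.78 for CD45RBlow minus CD45RBhigh cells, and the intervals of *Csgalnact1*, *Csgalnact2*, *Chpf* and *Chst12* hold 0 in each panel.

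For *Chpf* and *Chst12* the arrays differed by replicate number rather than by population. All 5 arrays of replicates 3 and 4 read 7.91 to 8.36 for *Chpf*, above all 6 arrays of replicates 1 and 2 at 7.46 to 7.68. *Chst12* gave 8.22 to 8.47 against 7.51 to 7.90 for the same arrays, again without overlap. For *Chsy1* replicate 1 was the highest array in every population, at 8.76 in Treg, 9.64 in CD45RBlow and 8.01 in CD45RBhigh cells. A moderated F test of the replicate number, with the population in the limma model, passed for these 3 of 9 members, at adjusted p = 0.00941 for *Chpf*, 0.00410 for *Chst12* and 0.00388 for *Chsy1*, where 14.8% of all probe sets passed. It did not pass for *Ust* (adjusted p = 0.732), *Chst15* (0.986), *Chst3* (0.757) or *Chst11* (0.131). This test was added after seeing the data, and no label says what a replicate number stands for.

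**Figure D3:**
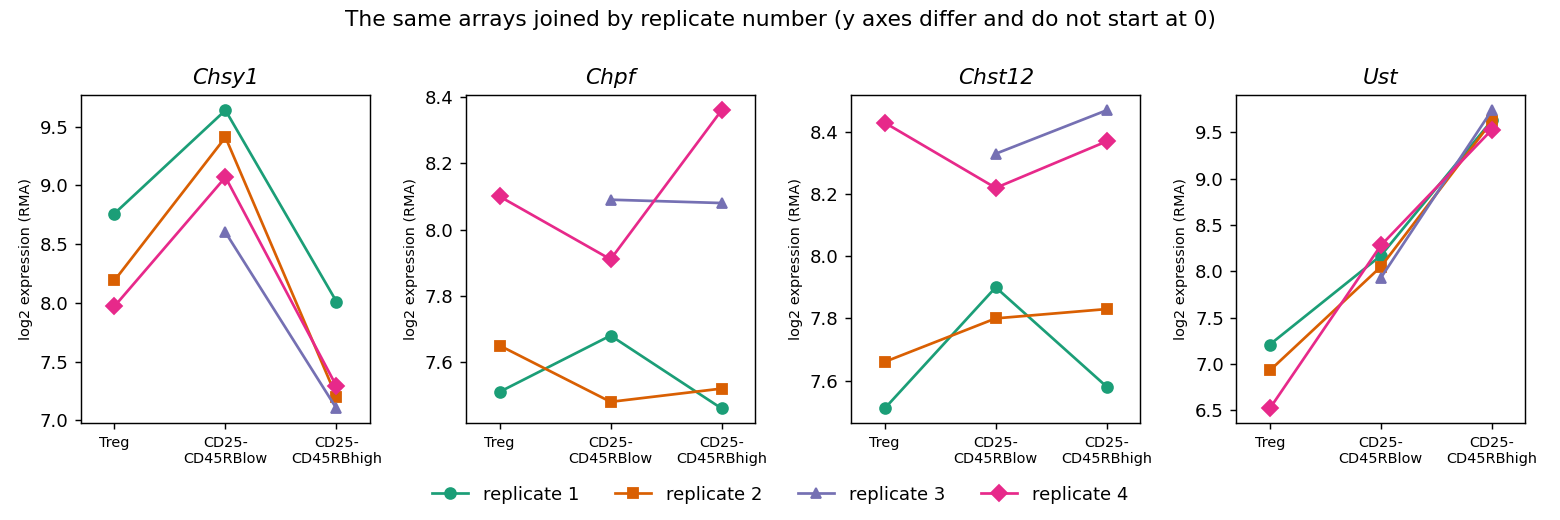
Log2 expression (RMA) of *Chsy1*, *Chpf*, *Chst12* and *Ust* in the 3 populations, with a line joining the arrays of 1 replicate number (no Treg array for replicate 3). The lines of *Chpf* and *Chst12* lie in separate bands (7.91 to 8.36 over 7.46 to 7.68 for *Chpf*), those of *Chsy1* run in parallel through a peak in CD45RBlow cells, and those of *Ust* nearly coincide in CD45RBhigh cells (9.53 to 9.74).

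Other genes of the pathway were taken from 7 lists. Their counts stand beside the same shares of all probe sets as above, 18.9% in Treg against CD45RBhigh, 12.5% in Treg against CD45RBlow and 12.6% in CD45RBlow against CD45RBhigh cells, or 26.5%, 19.7% and 21.7% with the replicate block. In the linkage region, which starts every chondroitin and heparan sulfate chain, 0 of 6 measured genes were higher and 2 were lower in Treg than in CD45RBhigh cells, with a median difference of -0.19 beside -0.04 for all probe sets. *Xylt2*, the xylosyltransferase that attaches the first sugar to the core protein, read 7.16, 7.23 and 7.51 in Treg cells, 8.06, 8.06, 8.33 and 8.41 in CD45RBlow cells, and 8.25, 8.28, 8.49 and 8.92 in CD45RBhigh cells. The Treg arrays stood below both other populations, by -0.92 (SE 0.16, limma adjusted p = 0.00290) from CD45RBlow cells, while CD45RBlow and CD45RBhigh cells overlapped (-0.27, limma adjusted p = 0.261, or 0.0281 with the replicate block). *B4galt7*, which adds the first galactose of the linkage region, was lower in Treg (-0.35, SE 0.09, limma adjusted p = 0.0152) and in CD45RBlow cells (-0.30, SE 0.08, limma adjusted p = 0.0319) than in CD45RBhigh cells. Of the 6 measured further enzymes of chondroitin and dermatan synthesis or of GalNAc sulfation (*Chsy3*, *Chst7*, *Chst14*, *Dsel*, *Chst9* and *Chst8*), limma called 0 in each comparison, also with the replicate block.

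Among 11 measured genes that supply sulfate donor and UDP-sugars, 2 were higher and 1 was lower in Treg than in CD45RBhigh cells (median 0.11), and 2 were higher and 0 lower than in CD45RBlow cells. *Slc35d1*, a transporter of UDP-glucuronic acid and UDP-N-acetylgalactosamine, the building blocks of the chain, read 7.03, 6.88 and 6.77 in Treg cells, 5.44, 5.51, 5.23 and 5.65 in CD45RBlow cells, and 5.41, 5.61, 5.54 and 6.55 in CD45RBhigh cells. No other measured gene of this list differed 2-fold or more in either Treg comparison, and *Slc35d1* was in Treg cells 2.71-fold above CD45RBlow and 2.17-fold above CD45RBhigh cells (limma adjusted p = 0.00132 and 0.00529). *Slc35b3*, a Golgi transporter of the sulfate donor PAPS, was lower in Treg than in CD45RBhigh cells by -0.37 (SE 0.11, limma adjusted p = 0.0458), with overlapping arrays, and CD45RBlow minus CD45RBhigh was -0.34 (limma adjusted p = 0.0612, or 0.00278 with the replicate block). *Slc35d3*, a related carrier, was higher in Treg cells by 0.30 (SE 0.09, limma adjusted p = 0.0437) at means of 3.57 in Treg and 3.27 in CD45RBhigh cells, both near background.

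Breakdown of the chains takes place in lysosomes. Of 8 measured genes 1 was higher and 3 were lower in Treg than in CD45RBhigh cells (median -0.20), and 0 and 1 than in CD45RBlow cells. With the replicate block 1 was higher and 2 were lower in Treg against CD45RBlow cells, and 1 higher and 3 lower in CD45RBlow against CD45RBhigh cells, where 1 and 0 passed without it. *Arsb*, the sulfatase that removes sulfate from carbon 4 of N-acetylgalactosamine and so undoes the step of *Chst11* and *Chst12*, read 7.99, 7.58 and 7.45 in Treg cells, 9.16, 9.0, 8.94 and 9.27 in CD45RBlow cells, and 8.81, 8.81, 8.84 and 8.84 in CD45RBhigh cells. The Treg arrays were below all others, and CD45RBlow minus CD45RBhigh was 0.27 (SE 0.11, limma adjusted p = 0.153). *Idua*, the iduronidase of dermatan and heparan sulfate, and *Hexa*, a hexosaminidase subunit, were lower in Treg than in CD45RBhigh cells by -0.48 each (SE 0.11 and 0.12, limma adjusted p = 0.0131 for both). The replicate block brought 3 further differences of theirs past the threshold. For *Idua* CD45RBlow minus CD45RBhigh was -0.33, at limma adjusted p = 0.0651 without the block and 0.0207 with it. For *Hexa* Treg minus CD45RBlow was -0.28 (limma adjusted p = 0.176 without and 0.0324 with the block) and CD45RBlow minus CD45RBhigh was -0.21 (0.227 and 0.0402). *Glb1*, a lysosomal galactosidase, was higher in Treg (0.48, SE 0.12, limma adjusted p = 0.0165) and in CD45RBlow cells (0.39, SE 0.11, limma adjusted p = 0.0443) than in CD45RBhigh cells.

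Of 20 measured genes of chain-carrying proteins 5 were higher and 1 was lower in Treg than in CD45RBhigh cells (median 0.03). Against CD45RBlow cells 2 were higher and 1 was lower in Treg cells (median 0.06). In CD45RBlow cells 2 were higher and 1 was lower than in CD45RBhigh cells (median -0.05). *Cd74*, the invariant chain, read 8.90, 9.08 and 8.86 in Treg cells, 7.16, 7.17, 6.72 and 6.97 in CD45RBlow cells, and 6.43, 6.33, 6.44 and 6.75 in CD45RBhigh cells. *Tgfbr3*, a proteoglycan co-receptor of TGF-beta, ran the other way and in the order of *Ust*, with 7.54, 7.24 and 7.50 in Treg cells, 9.62, 9.54, 9.70 and 9.91 in CD45RBlow cells, and 10.40, 10.39, 10.31 and 10.56 in CD45RBhigh cells. *Csf1*, a macrophage growth factor with a proteoglycan form, was 2.36-fold higher in Treg than in CD45RBhigh cells (log2 difference 1.24, SE 0.11, limma adjusted p = 5.53e-06). *Cd44*, a hyaluronan receptor, was higher in CD45RBlow than in CD45RBhigh cells by 1.5 (SE 0.31, limma adjusted p = 0.00830), while Treg minus CD45RBlow was -0.06 (SE 0.34).

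Heparan sulfate synthesis, which competes for the same linkage region, had 1 of 20 measured genes higher and 3 lower in Treg than in CD45RBhigh cells (median -0.03), a share close to the 18.9% of all probe sets. Those lower were the sulfotransferases *Hs6st1* (-0.65, SE 0.20), *Hs3st3b1* (-0.38, SE 0.09) and *Hs2st1* (-0.31, SE 0.09), at limma adjusted p = 0.0453, 0.0166 and 0.0425. *Hs2st1* sulfates the uronic acid of heparan sulfate at carbon 2, the counterpart of the *Ust* reaction. *Extl1*, a glycosyltransferase of the exostosin family, was higher in Treg than in CD45RBlow cells by 0.30 (SE 0.08, limma adjusted p = 0.0304). The hyaluronan synthases *Has1*, *Has2* and *Has3* gave 0 calls in limma in each comparison, also with the replicate block. Over the 7 lists the medians ran from -0.04 to 0.12 for Treg minus CD45RBlow cells, beside 0.04 for all probe sets, and from -0.17 to -0.02 for CD45RBlow minus CD45RBhigh cells, beside -0.08. The replicate block moved further counts by over 1.5 times. In CD45RBlow against CD45RBhigh cells it gave 3 lower linkage genes instead of 1 and 2 lower supply genes instead of 0. It also gave 3 higher and 3 lower carrier protein genes instead of 2 and 1, and 2 lower heparan sulfate genes instead of 1. In Treg against CD45RBhigh cells it gave 2 lower carrier protein genes instead of 1. In Treg against CD45RBlow cells it gave 4 higher carrier protein genes instead of 2, and 1 lower heparan sulfate gene instead of 0. The latter was *Hs6st1* (-0.51 without the block, limma adjusted p = 0.152, and 0.00493 with it).

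**Figure D4:**
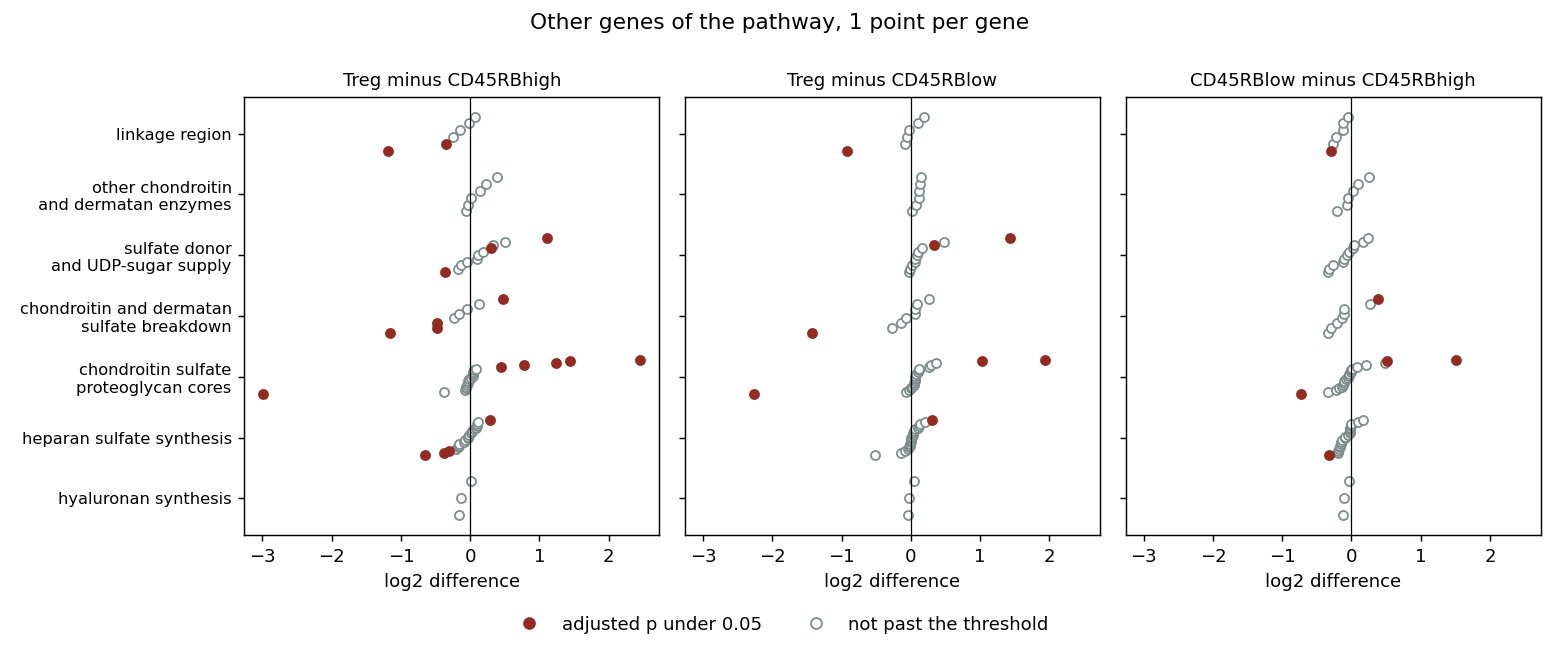
Log2 difference between populations for the other measured genes of the pathway, 1 row per list, 1 point per gene and 1 panel per comparison, filled where limma's adjusted p was under 0.05. Most points sit near 0, and the filled points far from it are single genes such as *Tgfbr3* (-2.99), *Cd74* (2.46) and *Xylt2* (-1.19) for Treg minus CD45RBhigh cells.

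For each member that passed in a comparison, the 3 genes with the most similar values were looked up among 908 others by Pearson correlation over the 11 arrays. The arrays form 3 populations, so a high value mostly describes the same order of populations, and no test is attached. *Ust* was most like *Il7r*, the interleukin-7 receptor chain (r = 0.97), *Igfbp4*, an insulin-like growth factor binding protein (0.961), and *Cmah*, which hydroxylates sialic acid (0.955). Among the genes most like *Chsy1* were the chemokine receptor genes *Ccr10* (0.941) and *Ccr9* (0.936). *Chst11* was most like *Cd48*, an adhesion ligand (0.964), *Ggta1*, which adds alpha-galactose (0.953), and *Ccr6* (0.946). *Chst15*, whose range was narrow, was nearest to the lectin-like receptor gene *Klrc1* (0.892), the sialyltransferase gene *St3gal6* (0.87) and *Klrk1* (0.869). *Chst3*, whose range was narrow too, was nearest to *Pkd1l2* (0.921), the ribosomal protein gene *Rpl23* (0.869) and *Piga* (0.867).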

How the data were processed

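Each of the 11 samples was hybridised to 1 custom Affymetrix glycan gene array as biotin-labelled cRNA, per the labels' protocols. The authors deposited 1 log2 value for each probe set and array, computed with RMA per the submitters' processing notes. Its version and settings are not given in the sources used here. Quantile normalization in RMA forces arrays to like distributions, so a shift shared by most genes would not be seen.

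Of 1246 probe sets 963 were named by RefSeq transcript from the GRCm38.p6 table, used for names only, and 283 were not. A gene is given by its probe set with the highest mean. Members and lists were chosen with earlier results of these data known.

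Population means were estimated over all arrays in limma 3.58.1 (R 4.3.3, prior degrees of freedom 2.87, residual 8). Tests were two-sided, adjusted by Benjamini-Hochberg over 1246 probe sets, at 0.05. No filter was applied. Named genes were all members, up to 4 genes past the threshold per list by adjusted p, 3 sort checks (*Il2ra*, *Cd44* and *Ccr7*) and the 3 genes most like each member that passed. One gene that this rule names is not reported here. Replicate numbers, from the labels, were taken to pair arrays, since deviations from the population means correlated between same-numbered arrays at 0.31 to 0.56 in 10 of 10 pairs. Numbers 1 and 2, and 3 and 4, also went together (0.20 to 0.58 in 10 pairs), so much of the structure is 2 sets of arrays. Arrays across these sets correlated at -0.65 to -0.18. Deviations from a population mean cancel out within that population, so these negative values are partly forced. Scripts were tested on simulated data. Precision is limited by the number of arrays. Alternatives were blocks, scalings, filters, moderation and left-out arrays. Figures used matplotlib 3.10.9.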

Additional observations from a re-analysis of the deposited data

Results flagged for a closer look

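In the CD45RBhigh group of 4 arrays, *Csgalnact1* read 3.625 in replicate 2 and 3.62 in each of the other 3 arrays, which hold 1 identical value, so any other value in replicate 2 would have been singled out, however close. *Slc35d3* read 3.246 in CD45RBhigh replicate 2, against 3.277 to 3.282 in the other arrays of that group. Both readings were singled out by Dixon's test for an array far from its group (critical value 0.829), and both lie near background. Of 56 groups of 4 arrays tested over 28 genes 2 were singled out, and chance gives about 1 in 20.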

How the results depend on the processing

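Of the 9 calls on members 6 kept their side of the threshold and their sign under every alternative that tested them: *Ust* in all 3 comparisons, *Chst11* in its 2 and *Chsy1* in CD45RBlow against CD45RBhigh cells. The others are given beside their results. With the replicate number as a random block *Chst3* in Treg against CD45RBhigh cells (limma adjusted p = 0.0460) and *Chsy1* in Treg against CD45RBlow cells (0.0144) passed, and *Chsy1* also with arrays centred on their 75th percentile (0.0336), and *Chst15* in Treg against CD45RBhigh cells passed with quantiles normalized again (0.0140) and with no moderation (0.0449). Over all probe sets the block moved the calls to 245 instead of 156 in Treg against CD45RBlow cells and to 271 instead of 157 in CD45RBlow against CD45RBhigh cells. Probe sets without suffix s or x leave *Ust* out, and filters on dim probe sets leave out *Csgalnact1* and, above the median, *Chst3*. With the replicate number as a block 3 members passed in Treg against CD45RBhigh, 3 in Treg against CD45RBlow and 4 in CD45RBlow against CD45RBhigh cells, and it changed no other call on members than *Chsy1* in Treg against CD45RBlow cells. In that comparison 1 member passed without suffix probe sets and 1 within replicates 3 and 4. Leaving out 1 array gave 2 to 3, 1 to 3 and 4 to 4 members in these comparisons in the same order.

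Signs changed for members that passed in neither setting, 35 times, and the cause was not tested. For Treg minus CD45RBhigh cells *Chpf* gave 0.09 within replicates 1 and 2 and *Chst12* 0.01 within replicates 3 and 4. For Treg minus CD45RBlow cells *Chpf* gave 0.05 with the replicate block, 0.00 within replicates 1 and 2 and 0.10 within replicates 3 and 4, *Csgalnact1* 0.01 with the block and 0.07 within replicates 1 and 2, and within replicates 3 and 4 *Csgalnact2* gave 0.13 and *Chst12* 0.15. For CD45RBlow minus CD45RBhigh cells *Chpf* gave 0.09 and *Chst12* 0.15 within replicates 1 and 2, and *Csgalnact1* gave 0.03 with quantiles normalized again and 0.05 within replicates 3 and 4. With 1 array left out, *Chpf* ran from -0.27 to 0.06, from -0.21 to 0.09 and from -0.20 to 0.10 in the 3 comparisons, and *Csgalnact1* from -0.07 to 0.00, from -0.07 to 0.03 and from -0.05 to 0.04. *Csgalnact2* ran from -0.13 to 0.07 for Treg minus CD45RBlow and *Chst12* from -0.16 to 0.14 for CD45RBlow minus CD45RBhigh cells. Centring arrays on their 75th percentile moved the share of higher calls over all probe sets to 42.6%, from 54.5%, in Treg against CD45RBhigh cells, and normalizing quantiles again moved it to 43.2%, from 60.5%, in CD45RBlow against CD45RBhigh cells.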
